A study of Mus musculus with 8 samples.

Results

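The genes described here are 10 markers of cerebellar cell types other than the granule lineage: Pcp2 and Calb1 for Purkinje cells, Gad1 and Pax2 for inhibitory interneurons, Gfap and Aqp4 for astroglia, Sox10, Mbp and Pdgfra for the oligodendrocyte lineage, and Eomes for unipolar brush cells. They are 10 of 21911 protein-coding genes in the GENCODE M21 annotation of mm10. The cells were granule neuron progenitors (GNPs), freshly isolated from mouse cerebellum at postnatal day 7 (P7), and the assay was ATAC-seq, in which the Tn5 transposase tags DNA that nucleosomes leave accessible. All peaks that touched a member's gene body or the 10 kb on either side were taken, whatever their height, so that each gene shows either open sites or their absence in a preparation meant to hold granule progenitors. The 3 groups were named by the genotype of Chd7, a chromatin remodeller: wild type (WT, 3 libraries), heterozygous (het, 2 libraries) and mutant (3 libraries), described in the study as homozygous. The strain label was C56Bl6/J, whereas the study's methods give a C57BL/6N background. For GNPs of the same age used for RNA, the study gives Chd7 f/f without Cre as WT, Atoh1-Cre with Chd7 f/+ as het and Atoh1-Cre with Chd7 f/f as mutant. Atoh1-Cre acts in the rhombic lip lineage, which gives rise to granule cells and unipolar brush cells, and does not target Purkinje cells. GNPs were enriched on a percoll gradient, which separates cells by density, so other cells can remain, and the sex of the pups was not distinguished. The WT and mutant replicates were technical, and each group was deposited as 1 list of peaks called on its pooled libraries. The values below therefore have no replicate error, and differences between groups were not tested against the spread between animals or libraries.

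Cells of the early postnatal cerebellum come from separate progenitor zones. Granule cells and unipolar brush cells arise from the rhombic lip, and Purkinje cells and inhibitory interneurons arise from the ventricular zone. Astroglia, including the Bergmann glia, also derive from the ventricular zone, while most cerebellar oligodendrocytes migrate in from outside. A gene that a cell does not use may still have an open start site, above all where the start site lies in a CpG island, a stretch rich in the dinucleotide CG. Start sites poor in CG tend to open in the cells that use the gene.

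To show how different these start sites are in sequence, the 250 bases upstream of 4 of them are printed from the RefSeq promoter table of GRCm38.p6, which is the assembly of mm10. Capitals mark each CG, and the sequences run from 5′ to 3′ on the strand of the gene. The table held 6 of the 10 members, and not Calb1, Aqp4, Sox10 and Mbp. It gave several promoters for Pcp2 and Pax2, of which 1 each is printed. Over its 32851 promoters the median number of CG in the 250 bases was 6, with quartiles of 2 and 16. The Pcp2 stretch (chr8:3625548-3625797, minus strand) held 1 CG and the Gfap stretch (chr11:102897201-102897450, minus strand) held 2, and neither was touched by a peak of any list. The Eomes stretch (chr9:118477939-118478188, plus strand) held 8 and was overlapped in part by a peak in all 3 lists. The printed Pax2 stretch (chr19:44755502-44755751, plus strand) held 20 and had no peak in it, the nearest WT peak starting at 44756210. Another Pax2 stretch (chr19:44756656-44756905) held 25 CG and was touched by a mutant peak of rank 6.12, with no WT or het peak. A further Pax2 stretch (chr19:44746351-44746600) held 5 and had no peak in any list.
Pcp2: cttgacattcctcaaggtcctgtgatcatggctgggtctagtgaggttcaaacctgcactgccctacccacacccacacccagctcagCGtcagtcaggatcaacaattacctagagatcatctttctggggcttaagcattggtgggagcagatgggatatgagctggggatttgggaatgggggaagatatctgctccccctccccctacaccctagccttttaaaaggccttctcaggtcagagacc
Gfap: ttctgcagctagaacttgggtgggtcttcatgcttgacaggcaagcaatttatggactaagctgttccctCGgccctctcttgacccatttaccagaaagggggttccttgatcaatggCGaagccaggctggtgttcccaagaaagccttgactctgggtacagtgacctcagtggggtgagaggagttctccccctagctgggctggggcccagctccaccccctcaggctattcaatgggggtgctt
Eomes: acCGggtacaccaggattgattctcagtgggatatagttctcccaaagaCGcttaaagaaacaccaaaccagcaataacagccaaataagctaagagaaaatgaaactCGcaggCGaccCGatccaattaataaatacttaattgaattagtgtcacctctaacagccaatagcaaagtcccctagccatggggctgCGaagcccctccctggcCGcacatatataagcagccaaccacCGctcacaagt
Pax2: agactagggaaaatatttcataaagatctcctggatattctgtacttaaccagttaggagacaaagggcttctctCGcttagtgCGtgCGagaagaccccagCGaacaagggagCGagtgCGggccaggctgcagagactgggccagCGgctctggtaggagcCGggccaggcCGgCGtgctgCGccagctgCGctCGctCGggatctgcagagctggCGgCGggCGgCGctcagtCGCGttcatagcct

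The sequences at the peaks themselves were searched for 5 short motifs in the 200 bp around each WT summit, on both strands: CAGCTG and CAGATG, E-box letters bound by basic helix-loop-helix factors such as Atoh1 and Neurod1, TGCCAA, part of the NFI motif, ACAATG, part of the Sox motif, and TAATTA, a homeodomain core. In the lines below, capitals mark matches in either orientation, and the bases are those of the plus strand of mm10. The Calb1 line (chr4:15881090-15881289) is the strongest promoter peak among the members, with 0 matches. The Gfap line (chr11:102898371-102898570) is its strongest peak, upstream of the coding start site, and holds CAGATG read as CATCTG. The Sox10 line (chr15:79166711-79166910) is the upstream peak of a gene without a promoter peak and holds both E-box motifs. The first Pdgfra line (chr5:75171944-75172143) is its strongest WT peak and holds CAGCTG. The second Pdgfra line (chr5:75169971-75170170) is the site with the largest ratio of mutant to WT pileup among the members and holds TGCCAA, read as TTGGCA, and TAATTA.
Calb1: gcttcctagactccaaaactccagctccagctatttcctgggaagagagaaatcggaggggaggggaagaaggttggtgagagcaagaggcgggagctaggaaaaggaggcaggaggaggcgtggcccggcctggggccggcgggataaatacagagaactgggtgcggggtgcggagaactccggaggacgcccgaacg
Gfap: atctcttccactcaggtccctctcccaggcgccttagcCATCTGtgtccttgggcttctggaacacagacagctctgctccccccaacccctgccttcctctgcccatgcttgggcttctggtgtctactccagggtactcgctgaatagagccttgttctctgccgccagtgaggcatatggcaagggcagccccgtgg
Sox10: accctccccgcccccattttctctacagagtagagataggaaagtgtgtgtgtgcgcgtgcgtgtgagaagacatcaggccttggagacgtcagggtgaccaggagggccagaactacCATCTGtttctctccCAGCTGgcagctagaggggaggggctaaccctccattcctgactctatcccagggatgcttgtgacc
Pdgfra, strongest peak: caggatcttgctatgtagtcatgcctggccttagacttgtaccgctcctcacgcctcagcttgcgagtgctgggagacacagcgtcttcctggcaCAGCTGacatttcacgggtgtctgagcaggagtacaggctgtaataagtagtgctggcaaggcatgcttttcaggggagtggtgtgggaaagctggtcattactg
Pdgfra, largest ratio: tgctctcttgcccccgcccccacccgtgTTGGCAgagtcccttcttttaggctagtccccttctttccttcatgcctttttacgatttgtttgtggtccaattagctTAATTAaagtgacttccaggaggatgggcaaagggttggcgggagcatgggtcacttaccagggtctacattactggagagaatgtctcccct

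Of the 79 WT peaks of the members, 21 held CAGCTG (26.6%), 23 held CAGATG (29.1%), 10 held TGCCAA (12.7%), 6 held ACAATG (7.59%) and 4 held TAATTA (5.06%). Over all 152982 WT peaks on assembled chromosomes the shares were 23.5%, 28.5%, 21.7%, 9.36% and 4.65%. A match describes letters and is not evidence of binding.

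Depth and the state of the lists bear on every count. Tags after duplicate removal numbered 50394313 (WT), 51030229 (mutant) and 30923002 (het), and the lists held 152984, 174407 and 106974 peaks. The lowest peak in a list had a pileup, the number of extended tags stacked at the summit, of 7 in WT and mutant and 8 in het, so that a gene without a peak had too few tags to be called and was not shown to have none. Each list was ordered by the deposited -log10 q, and a peak's rank is the percentage of peaks of its own list at or below it, with 100 the strongest. The het list was called from another alignment with longer extension than WT and mutant, and the tag size was 76 bp in mutant against 107 bp in the others. Genotype and processing therefore cannot be told apart in comparisons with het, whose pileups were not compared with those of the other lists, and genotype and tag size cannot be told apart between WT and mutant. In the targeted gene, Chd7, the strongest peak near a coding start site ranked 89.4 in WT, 81.8 in het and 86.3 in the mutant. A start-site peak does not test whether the gene was deleted. The lists pool all cells of a preparation, so fewer cells of a type and a less open site per cell cannot be told apart.

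The windows of the 10 genes covered 569 kb and held 79 WT, 59 het and 87 mutant peaks. With the lists cut to equal length they held 57 WT, 59 het and 61 mutant peaks, with no background given at that setting. At full length the pooled density was 1.39, 1.04 and 1.53 peaks per 10 kb. The median of the densities of single windows, over all protein-coding genes, was 0.715, 0.520 and 0.807. The pooled density gives long windows more weight, so it is not a like measure to this median. None of the 10 windows was empty in any list. Of all protein-coding genes, 14.7% had no peak in their window in WT, 17.6% in het and 14.0% in mutant. Window length was not matched, and a count over 10 genes is too small to set them apart from these shares. Eomes had the densest window, with 3.58 WT peaks per 10 kb, and 99.9% of genes were at or below it. Pdgfra (1.82) and Mbp (1.76) followed, with 93.7% and 92.7% of genes at or below them. Sox10 had the sparsest window, with 0.659 WT peaks per 10 kb, and 46.5% of genes were at or below it. By the way rank is defined, a whole list has a median rank of about 50 and about 10% of its peaks at 90 or more. Beside that, the member peaks had a median rank of 51.2 in WT, 47.3 in het and 58.7 in the mutant. Of them, 5 of 79, 6 of 59 and 7 of 87 ranked at 90 or more. By location, 36 of the 79 WT peaks were intronic, 14 lay within 1 kb of a coding start site of the member, 12 lay upstream, 7 in exons, 7 downstream, and 3 at start sites of neighbouring genes.

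**Figure D1:**
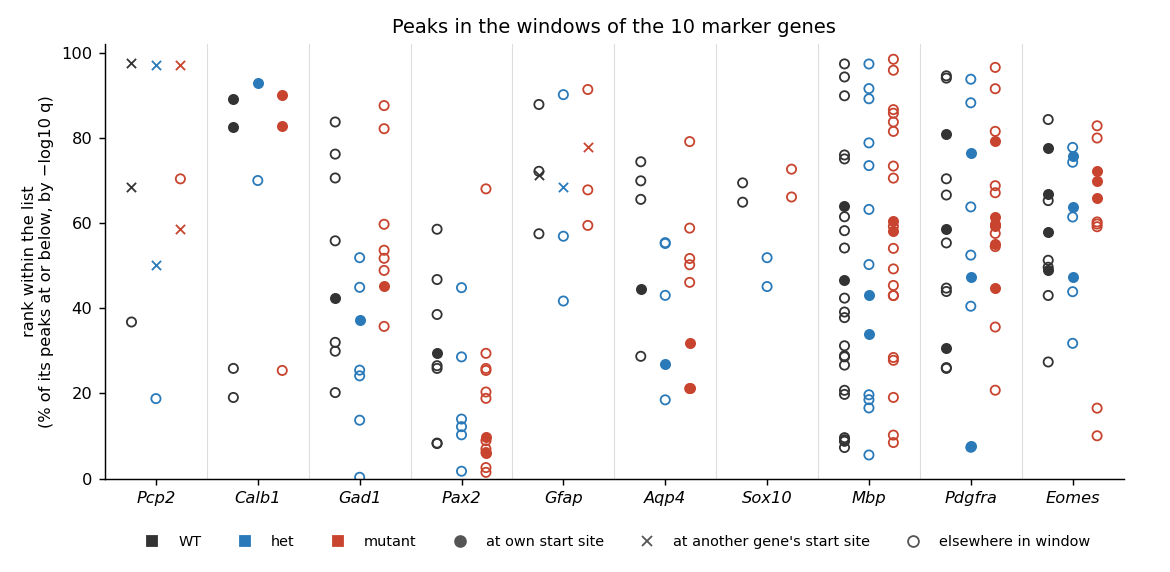
Rank within its list of every peak in the windows of the 10 marker genes (vertical axis, percent of the list's peaks at or below it by -log10 q), with WT in black, het in blue and mutant in red. Filled circles are peaks within 1 kb of a coding start site of the gene, crosses are peaks at another gene's start site and open circles are all others. Pcp2, Gfap and Sox10 have no filled circle in any list, and the highest Pcp2 symbols are crosses.

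A promoter peak, meaning a peak within 1 kb of the start site of any protein-coding transcript of the gene, was present for 7 of the 10 members in WT, 6 in het and 7 in the mutant. Among 21829 protein-coding genes 68.9% had one in WT, 67.0% in het and 69.7% in mutant, so the members' counts were close to the background. The 7 in WT were Calb1, Pdgfra, Eomes, Mbp, Aqp4, Gad1 and Pax2. The same genes had one in mutant, and het lacked Pax2. Pcp2, Gfap and Sox10 had none in any list, although with the 5′ end of the annotated gene in place of coding start sites Gfap had one in all 3 and Pdgfra, Gad1 and Aqp4 had none in WT and het. The members' promoter peaks were low. With genes without a peak set to 0, the median promoter rank was 43.4 in WT, 32.2 in het and 38.5 in the mutant. Over all genes it was 80.9, 75.0 and 83.1. With the lists cut to equal length, 6 members had a promoter peak in WT, 6 in het and 5 in mutant. Pax2 then had none in any list, and the share over all genes at that setting is not given.

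Calb1 and Pcp2, the Purkinje markers, stood at opposite ends. Calb1 encodes calbindin, a calcium-binding protein abundant in Purkinje cells. Its promoter peak (chromosome 4, 15881030 to 15881981, ENSMUSG00000028222.2) had a pileup of 45 in WT and 46 in mutant, and ranked 89.1 in WT, 92.8 in het and 90.1 in the mutant, the highest promoter rank of the 10 members in all 3 lists. In WT, 60.7% of all genes were at or below that promoter rank. A second peak at 15882250 to 15882563 ranked 82.5 in WT, 70.0 in het and 82.8 in the mutant, and beyond these the window held only 2 low WT peaks, of ranks 25.9 and 19.0. Pcp2 encodes a small modulator of G protein signalling that is largely restricted to Purkinje cells in the cerebellum. Its window (gene on chromosome 8, 3623371 to 3625545, ENSMUSG00000004630.18) held 3 peaks in each list, but 2 of them lay at start sites of neighbours: the peak of WT rank 97.4 at those of Xab2 and Pet100, and the peak of WT rank 68.4 at that of Stxbp2. The only other peak, at 3628167 to 3628304, was 2700 bp upstream of the Pcp2 start site. It had a pileup of 14 in WT and 23 in mutant and ranked 36.8 in WT, 18.8 in het and 70.4 in the mutant. Apart from the start sites of its neighbours, then, the Pcp2 window held 1 weak peak in WT.

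Gad1 and Pax2, the interneuron markers, had low peaks at their start sites. Gad1 encodes glutamate decarboxylase, which makes GABA and is shared by Purkinje cells and inhibitory interneurons. The outermost annotated Gad1 start site (chromosome 2, 70553072) had no peak within 1 kb, and the nearest WT peak was 5190 bp away. The inner start sites from 70562042 to 70563442 had the peak at 70561014 to 70561649, with a pileup of 19 in WT and 21 in mutant and ranks of 42.3 in WT, 37.3 in het and 45.2 in the mutant. The tallest Gad1 peak by rank was intronic, at 70595976 to 70596182, with ranks of 83.7, 51.9 and 87.5 in WT, het and mutant. Pax2 encodes a transcription factor of GABAergic interneuron progenitors, and its start sites on chromosome 19 lie in CpG-rich sequence. Its promoter peak at 44756210 to 44756445 had a pileup of 16 in WT and 13 in mutant, with ranks of 29.4 and 9.77, and het had no peak within 1 kb. Pax2 also had the lowest strongest peak of the 10 genes in WT, at 44792085 to 44792402, with ranks of 58.5 in WT, 44.8 in het and 68.0 in the mutant. The Pax2 window held 8 WT, 6 het and 13 mutant peaks, and its median rank was 28.0, 13.1 and 9.77.

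Gfap and Aqp4, the astroglial markers, had their strongest peaks away from the start site used for the protein. Gfap encodes the intermediate filament of astrocytes. No list had a peak within 1 kb of its coding start sites (chromosome 11, 102897131 and 102897200). A strong peak lay just beyond, at 102898321 to 102898900, with its summit 1271 bp upstream of the coding start and inside the annotated gene, which a non-coding transcript extends upstream. It had a pileup of 48 in WT and 54 in mutant, and ranked 87.8 in WT, 90.1 in het and 91.3 in the mutant. All 4 WT peaks of the Gfap window recurred in het and mutant, and 1 of them lay at the start sites of Ccdc103 and Eftud2. Aqp4 encodes the water channel of astrocyte endfeet. Its outermost coding start site (chromosome 18, 15410982) had no peak within 1 kb in any list, and its innermost start sites, from 15402999 to 15403758, had the peak at 15403593 to 15403696. That peak had a pileup of 18 in both WT and mutant and ranked 44.5 in WT, 27.0 in het and 31.8 in the mutant. The mutant list had a further low peak, of rank 21.2, within 1 kb of a middle start site. The strongest Aqp4 peak in WT was exonic, at 15391419 to 15391979, with ranks of 74.4, 55.4 and 51.7 in WT, het and mutant.

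Sox10, Pdgfra and Mbp mark the oligodendrocyte lineage. Sox10 encodes a transcription factor present throughout that lineage. It had 2 peaks in each list, with 0 within 1 kb of its start sites (chromosome 15, 79164474 to 79165240). The stronger WT peak, at 79166746 to 79167092, had its summit 1571 bp upstream, a pileup of 26 in WT and 23 in mutant, and ranks of 69.4, 45.1 and 66.1 in WT, het and mutant.

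Pdgfra encodes the receptor for platelet-derived growth factor on oligodendrocyte progenitors and on some vascular and meningeal cells. The window (gene on chromosome 5, 75152292 to 75198215, ENSMUSG00000029231.15) held 12 WT, 9 het and 15 mutant peaks. Its outermost start site had no WT or het peak within 1 kb, while the mutant list had one at 75151247 to 75151359, with a pileup of 26 and a rank of 59.2. The highest promoter rank came from the peak at 75160709 to 75161194, 640 bp from the innermost coding start site, with a pileup of 40 in both WT and mutant and ranks of 80.9, 76.5 and 79.3 in WT, het and mutant. Its strongest WT peak was intronic, at 75171778 to 75172384, with a pileup of 54 in WT and 50 in mutant and ranks of 94.5, 88.2 and 91.5. A second intronic peak, at 75179331 to 75180201, ranked 94.0 in WT, and it was singled out after its value was seen.

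Mbp encodes myelin basic protein and is read from 2 groups of start sites on chromosome 18. The outer start sites, at 82475146 to 82475162, give the longer Golli transcripts, which are also used outside the oligodendrocyte lineage, and the inner ones, at 82554470 to 82554580, give the classic myelin transcripts. The outer start sites had 2 peaks in each list. The higher-ranked in WT, at 82475605 to 82476063, had a pileup of 32 in WT and 31 in mutant and ranked 64.0 in WT. The het and mutant promoter ranks were 43.0 and 60.3. The inner start sites had no peak within 1 kb in any list: the nearest peak was 7633 bp away in WT, 13152 bp in het and 4808 bp in mutant. Between these groups of start sites lay the strongest Mbp peak, at 82517813 to 82519000, 1188 bp wide, with a pileup of 77 in WT and 83 in mutant and ranks of 97.3 in WT, 97.3 in het and 98.4 in the mutant. Its summit was 36054 bp upstream of the inner start sites. Further Mbp peaks lay upstream of the gene, in introns on both sides of the inner start sites, in an exon and downstream, and the inner start sites themselves lay in a gap.

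Eomes encodes Tbr2, a T-box factor of unipolar brush cells that rhombic lip progenitors also use. Its window (gene on chromosome 9, 118478212 to 118486132, ENSMUSG00000032446.14) was short and held 10 WT, 8 het and 10 mutant peaks. There were 4 WT peaks within 1 kb of its start sites, of ranks 77.7, 66.8, 58.0 and 48.9, and the strongest, at 118477944 to 118478269, had a pileup of 41 in WT and 38 in mutant and ranked 75.8 in het and 72.2 in mutant. The strongest WT peak of the window, at 118489447 to 118490118, lay downstream of the gene, with a pileup of 41 in WT and 37 in mutant and ranks of 84.3, 77.7 and 82.8 in WT, het and mutant. The remaining 5 WT peaks lay upstream or downstream, and none lay in the gene body away from the start sites.

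**Figure D2:**
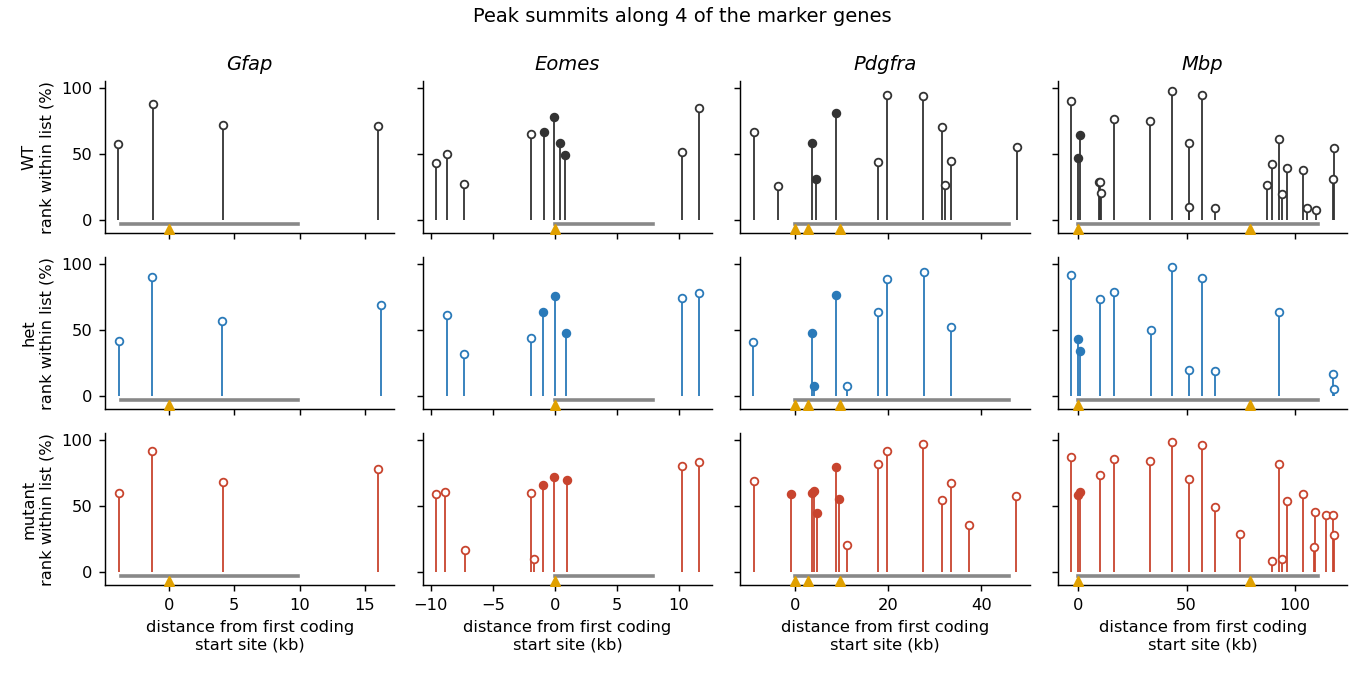
Peak summits along Gfap, Eomes, Pdgfra and Mbp, with the distance in kb from the first coding start site, in the direction of transcription, on the horizontal axis and the rank within the list on the vertical axis. Rows are the WT, het and mutant lists, filled circles are promoter peaks, grey bars are the annotated genes and yellow triangles are groups of coding start sites. The second Mbp triangle and the Gfap triangle have no filled circle near them in any row.

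The members' promoter peaks were then set beside those of other gene lists. All 16 genes of the granule lineage had a promoter peak in each list, with WT ranks from 71.4 to 94.9 and a median of 84.3, highest for the zinc finger factor Zic2. Atoh1, which defines granule progenitors and is named here with its values already known, ranked 88.0 in WT, 90.9 in het and 93.8 in the mutant. The 16 granule lineage genes, not all of them particular to that lineage, thus had open start sites in all 3 lists. Their ranks were near those of genes in general. The WT median of those was 80.9 with genes without a peak at 0 and 91.3 among those with one. Of 12 genes used in tissues other than brain, 2 had a WT promoter peak, 1 a het and 3 a mutant peak. The highest WT rank among them was 65.1, for the muscle factor Myod1, and Afp and Amelx, for a fetal liver protein and an enamel protein, were among the 8 without a peak in any list. The median promoter rank of the 10 members, 43.4, lay between those of these lists, 84.3 and 0. The genes of other tissues were picked as loci likely to be closed, and the lists were not matched for CG content. This placing is therefore a description and says nothing of the purity of the preparation.

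Other markers of the members' own cell types numbered 35, of which 30 had a promoter peak in WT, 29 in het and 30 in the mutant, with a median WT rank of 68.0. Beside these counts and those of each list stand the 68.9%, 67.0% and 69.7% of all protein-coding genes with one. All 8 further Purkinje markers had one in WT and 7 in het and in mutant, and Itpr1, the calcium release channel of the endoplasmic reticulum, ranked highest in WT with 99.2. Of 7 further interneuron markers, 6 had one in each list, and Slc32a1, the vesicular GABA transporter, had none. Of 8 further astroglial markers, 7 had one in WT and 8 in het and in mutant, with Sox9, a factor of glial progenitors, highest at 90.8. Of 8 further oligodendroglial markers, 5 had one in WT, 4 in het and 5 in the mutant. Olig1, a factor of oligodendrocyte progenitors, ranked 80.6 in WT, and the myelin genes Mag and Mog were among the 3 with none in any list. Cnp, also a myelin gene and named here with its values already known, had one in all 3, with ranks of 17.0, 20.5 and 43.9 in WT, het and mutant. All 4 further unipolar brush cell markers had one in each list. Of 14 markers of microglia, vessels and meninges, 11 had one in WT, 10 in het and 11 in the mutant. Foxc1, a factor of the meninges, ranked 89.4 in WT, and the microglial genes Aif1 and Cx3cr1 were among the 3 without one in any list. Other microglial genes did have one, and are likewise named with their values known: P2ry12 ranked 30.6, 55.1 and 77.6 in WT, het and mutant, and Csf1r ranked 43.2 in WT and 51.0 in mutant. The part of other cells in these peaks was not tested.

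**Figure D3:**
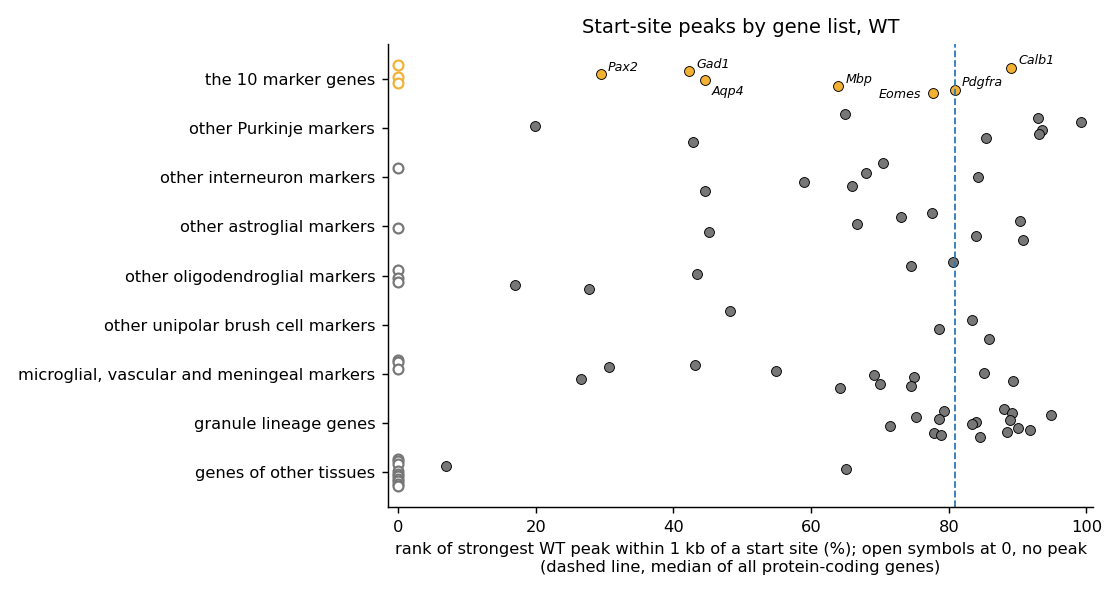
Rank of the strongest WT promoter peak of each gene (horizontal axis, percent), 1 point a gene, by list, with genes without a promoter peak as open symbols at 0 and the dashed line at the median of all protein-coding genes, 80.9. The 16 granule lineage genes lie at 71.4 and above, the members spread from 29.4 to 89.1 with 3 at 0, and 10 of the 12 genes of other tissues lie at 0.

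Which members had a peak at their outermost start site went with the CG content of that start site, taken as CpG observed over expected in the surrounding 1 kb. Over all genes, 18.8% of 7927 start sites with a ratio under 0.35 had a WT peak within 1 kb, against 78.2% of 3729 with a ratio from 0.35 up to 0.6 and 97.3% of 10173 above that. The 4 members in the lowest class, Pcp2 (0.10), Sox10 (0.17), Gad1 (0.25) and Aqp4 (0.27), had none at that site in any list. The 4 members in the highest class, Mbp (0.60), Eomes (0.62), Pax2 (0.70) and Calb1 (0.70), all had one in WT and in mutant, and 3 had one in het. Pdgfra (0.40) and Gfap (0.42) were in the middle class without a WT or het peak at that site, and Pdgfra had one in mutant. The inner Gad1 start sites, which had a promoter peak in all 3 lists, had a ratio of 0.68, and the inner Mbp start sites, which had none, had 0.46. Peaks at Aqp4 and Pdgfra stood at inner start sites with ratios of 0.29 for Aqp4 and 0.44 and 0.19 for Pdgfra. These are counts over few genes and describe where they stand on the curve for all genes.

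**Figure D4:**
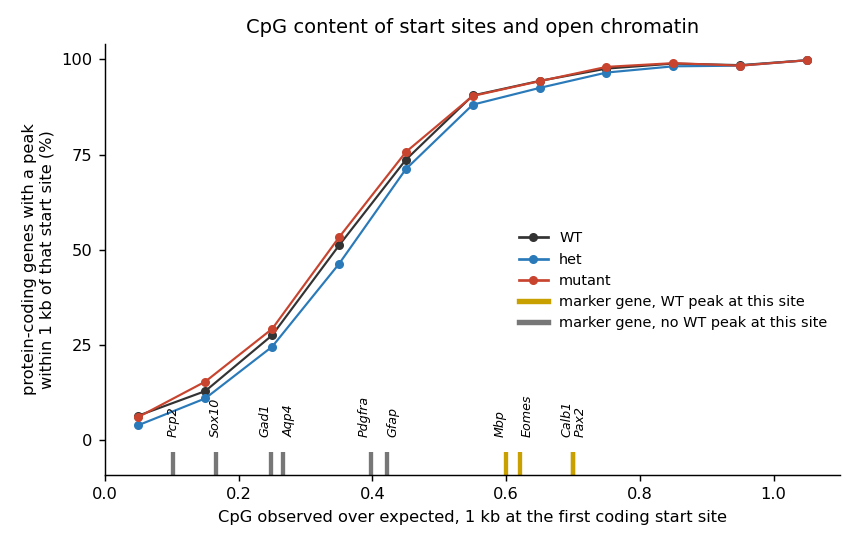
Share of all protein-coding genes with a peak within 1 kb of their outermost coding start site (vertical axis, percent) by CpG observed over expected in the 1 kb around it (horizontal axis, bins of 0.1), for WT in black, het in blue and mutant in red. Marks on the lower edge are the 10 members, yellow with and grey without a WT peak at that site: all 4 yellow marks lie at 0.60 or above.

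WT and mutant peaks of the members largely coincided. Of the 79 WT peaks, 70 were overlapped by a mutant peak (88.6%, Wilson 95% CI 79.7 to 93.9%), and over the whole WT list 77.2% were. Of the 87 mutant peaks, 68 were overlapped by a WT peak (78.2%, 68.4 to 85.5%), against 69.3% of the whole list. Of the WT peaks 69.6% were overlapped by a het peak, against 63.1% of the list, and of the mutant peaks 69.0%, against 58.7%. Of the 59 het peaks, 52 were overlapped by a WT peak (88.1%, against 86.7%) and 58 by a mutant peak (98.3%, against 89.3%). These intervals cover counting error only, since neighbouring peaks are not independent and PCR copies are not separate molecules.

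The 9 peaks found in WT and not in mutant had a median -log10 q of 3.55 and ranked at most 38.5, against a median of 3.34 for all unshared WT peaks. The 19 mutant peaks without a WT peak had a median of 3.74, against 3.81 for all unshared mutant peaks, and 5 of them ranked above 50. The strongest of these was at Pdgfra, 75156215 to 75156405, near a middle start site, with a pileup of 31 and a rank of 61.4 in mutant. It was singled out after its value was seen, and it overlapped a het peak and lay within 300 bp of WT peaks on either side. Peaks within 300 bp of each other across the lists formed 82 regions. Of these, 48 were in all 3 lists (58.5%, against 45.7% of 190582 regions of the whole lists), 10 in mutant alone (12.2%, against 20.1%) and 5 in WT alone (6.10%, against 13.3%). A further 14 were in WT and mutant (17.1%, against 12.7%), 4 in het and mutant (4.88%, against 3.03%) and 1 in het alone (1.22%, against 3.52%). No member region was in WT and het without mutant, where 1.66% of all regions were. All regions of Pcp2, Gfap and Sox10 were in all 3 lists, whereas Pax2 had 3 of 12 regions in all lists and 3 in a single list.

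At the 70 shared peaks, pileup per 1000000 tags was compared directly between WT and mutant. The median log2 ratio of mutant to WT was 0.10, against 0.08 for all 118098 shared peaks, and 44 of 70 (62.9%) were higher in mutant against 57.6% of all. After scaling to the median of all shared peaks, the members' median log2 ratio was 0.03. At 1.5-fold or more, 7 of 70 were higher in mutant, where 8.37% of all shared peaks were, and 2 were lower, where 3.61% of all were. The ratios ran from 0.617 to 2.03, and 1 of the 70 exact binomial 95% intervals, which cover counting error only, excluded 1. Among many intervals at 95%, some exclude 1 by counting error alone. The share of all shared peaks whose interval excluded 1 is not given, so this count was not set against a background. The member peak counted was in an intron of Pdgfra, at 75170012 to 75170220, with a pileup of 18 in WT and 37 in mutant. It had the largest ratio of the 70, 2.03 (1.13 to 3.79), and ranks of 43.9 in WT, 63.8 in het and 81.5 in the mutant. Its strong intronic neighbour at 75171778 had a ratio of 0.914 (0.610 to 1.37).

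The other 6 peaks past 1.5-fold upward had intervals that included 1. They were the upstream Pcp2 peak, with a ratio of 1.62 (0.800 to 3.41), 4 Mbp peaks and 1 Eomes peak. At Mbp, the WT peaks at 82484778 and 82485225, each with a pileup of 14, lay under a single mutant peak with a pileup of 27, so that their ratio of 1.90 (0.964 to 3.93) is 1 comparison counted for both. The Mbp peak at 82567784 went from 23 to 35 tags, a ratio just past 1.5 (0.863 to 2.66), and that at 82584467 from 11 to 17, a ratio of 1.53 (0.674 to 3.60). The Eomes peak at 118488212, downstream of the gene, went from 22 to 35, a ratio of 1.57 (0.896 to 2.81). The peaks lower by 1.5-fold or more were at Gad1 and Aqp4. The intronic Gad1 peak at 70572413 went from 30 to 19, a ratio of 0.625 (0.333 to 1.15). The same mutant peak also overlapped the WT peak at 70572210, with a pileup of 16 and a ratio of 1.17 (0.571 to 2.44). The exonic Aqp4 peak at 15391419 went from 24 to 15, a ratio of 0.617 (0.301 to 1.23). At Eomes, the WT peaks at 118478523 and 118478998 also lay under a single mutant peak, with ratios of 1.26 and 1.41. At the strongest promoter peak of each member that had one, the ratio of mutant to WT lay between 0.802 at Pax2 and 1.09 at Gad1, and each interval included 1. By gene, the median log2 ratio was highest for Mbp, 0.24 with 14 of 19 shared peaks higher in mutant, and lowest for Pax2, -0.07 with 2 of 6 higher.

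**Figure D5:**
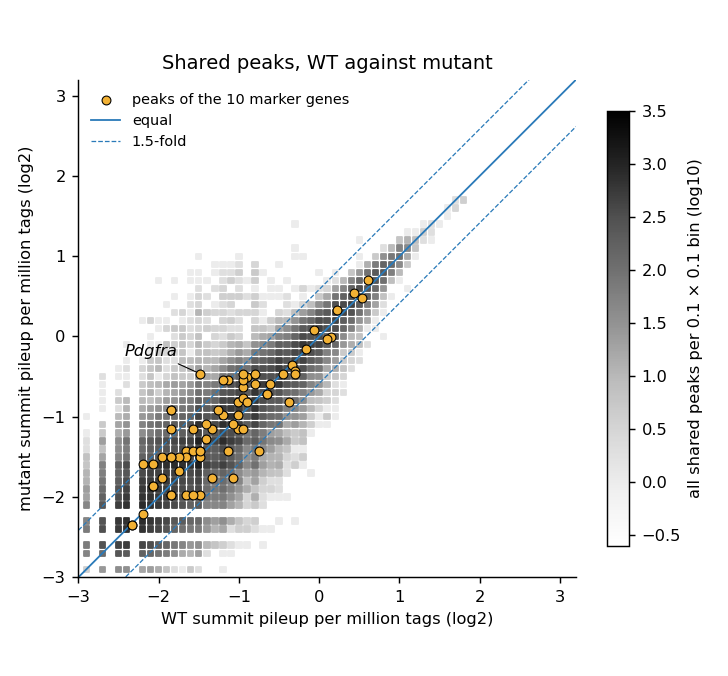
Summit pileup per 1000000 tags in WT (horizontal axis, log2) and mutant (vertical axis, log2) for the 70 shared peaks of the 10 marker genes (yellow) over all shared peaks (grey, number per bin on a log10 scale). The solid line is equality and the dashed lines are 1.5-fold, beyond which lie 7 member peaks on the mutant side and 2 on the WT side, and the labelled point is the Pdgfra peak with the ratio of 2.03.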

How the data were processed

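The files used were 3 lists of narrow peaks, 1 for each Chd7 genotype, which the authors called with MACS2 on pooled libraries at a q-value cutoff of 0.05. Per the submitters' processing notes the tools included Trim Galore 0.4.1, STAR 2.5.0b, Bowtie 1.0.0, Picard 1.139 and MACS2 2.1.0.20150731 with mm10. Per the file headers WT and mutant came from STAR alignments with modelled fragments of 90 and 88 bp, and het from bowtie alignments shifted by -100 bp and extended to 200 bp. Each peak carries its pileup, the signal deposited at the summit and not scaled to depth, a fold enrichment, which is the ratio the authors' caller gave of pileup to local background, and a deposited -log10 q, which set the rank.

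The members and gene lists were chosen with earlier results of these data known. Windows were the GENCODE M21 gene body with 10 kb on each side, promoter peaks lay within 1 kb of a coding start site, and peaks were shared at an overlap of 1 bp. Where a WT peak met several mutant peaks the strongest was used. Pileup was expressed per 1000000 tags, with exact binomial intervals for ratios and Wilson intervals for shares, both at 95%. All members were named, with their promoter peaks, strongest WT peaks and shared peaks past 1.5-fold. From each comparison list at most 3 genes were named, those with the strongest WT promoter peak or none in any list. Atoh1, Cnp, P2ry12 and Csf1r were named outside this rule, with their values known. Some genes that this rule picks are not reported here. Scripts were tested on simulated data and used python 3.11.15, numpy 2.4.6, pandas 2.3.3, scipy 1.17.1 and pysam 0.24.0. No columns were left without a group.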

Additional observations from a re-analysis of the deposited data

How the results depend on the processing

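Gene bodies alone held 57 WT, 42 het and 61 mutant peaks. Windows of 50 kb on each side held 135 WT, 97 het and 155 mutant peaks. With -log10 q of 5 or more, the windows held 52 WT, 45 het and 61 mutant peaks. Members with a promoter peak then numbered 6 in WT, 6 in het and 5 in mutant. With fold enrichment of 4 or more, the windows held 53 WT, 36 het and 58 mutant peaks. Members with a promoter peak then numbered 5 in WT, 3 in het and 4 in mutant. At 50% reciprocal overlap, 69.6% of WT and 63.2% of mutant member peaks were shared, and for peaks with -log10 q of 5 or more 98.1% and 90.2%. Shared peaks higher in mutant by 1.5-fold numbered 7, and 4 of 70 after scaling to the median of all shared peaks. At -log10 q of 5 or more they numbered 3 of 47. By fold enrichment in place of pileup, 0 were lower. For these counts and shares, the share over all peaks or genes at the same setting is not given. They were therefore not set against a background. With CpG read in the 300 bases at the start site, the share of genes with a WT peak was 23.8% in the low, 74.1% in the middle and 96.5% in the high class, and Pdgfra and Gfap moved to the low class, Calb1, Eomes and Pax2 to the middle. Taking the 5′ end of the gene in place of coding start sites gave Gfap a promoter peak in all 3 lists, since its annotated gene begins upstream of them, and removed those of Gad1 and Aqp4, and in WT and het that of Pdgfra. An alternative chosen after seeing the data, without members whose kilobase holds another gene's start site, could not be run, as there was no such member. No paired analysis was possible because each list pools its libraries, and for the same reason no replicate could be left out. At peaks near the lowest pileup of 7 or 8 tags a fall cannot be measured, since lower peaks were not called.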
